A study of Mus musculus with 42 samples.

Results

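The expression of 9 genes of fatty acid oxidation was followed in aorta and skeletal muscle of diabetic and healthy mice. They are Cpt1b, Cpt2, Acadvl, Acadl, Acadm, Hadha, Hadhb, Ehhadh and Pdk4, chosen by name, with earlier results of these data known. They are 9 of 21186 genes named on the array, read by 12 of its 34891 named probes, with 3 probes for Hadha, 2 for Cpt1b and 1 for each of the others. The arrays came from 7 groups of male mice with 3 mice per tissue and group, 42 arrays in all. Group G held healthy C57BL/6 mice. Group A held KK/Ay mice, a strain that carries the yellow agouti allele and becomes obese and diabetic without treatment. Group C was the diabetic macroangiopathy model, in which KK/Ay mice ate a high-fat diet and received L-NAME, which blocks nitric oxide synthase. Groups B, D, E and F were mice of that model gavaged with SHENQI compound, a Chinese herbal formula, with its yangyinyiqi part, with its huoxue part or with rosiglitazone, a PPARγ agonist, and the other groups were gavaged with saline. All groups but G therefore share the KK/Ay background, and every contrast with G is a contrast of strain as well as of disease. The labels do not say whether an aorta and a muscle sample with the same number came from the same mouse.

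Long-chain fatty acids enter mitochondria as carnitine esters. Cpt1b, the muscle form of carnitine palmitoyltransferase 1, makes the ester at the outer membrane, and Cpt2 turns it back into acyl-CoA at the inner membrane. Inside, the acyl-CoA dehydrogenases Acadvl, Acadl and Acadm take very long, long and medium chains through the first step of each round of beta-oxidation, and Hadha and Hadhb, the subunits of the trifunctional protein, carry out the later steps on long chains. Ehhadh is a bifunctional enzyme of the separate pathway in peroxisomes and is known as a target of PPARα. Pdk4 is a kinase that switches off the pyruvate dehydrogenase complex and so spares glucose while fat is burned. Muscle, heart and brown fat are rich in these enzymes, and brown fat surrounds parts of the mouse aorta.

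The promoter sequences show what the genes hold, and do not hold, in common upstream of their start sites. RefSeq (GRCm38.p6) gave promoters for 8 of the 9 genes, and the 250 bases before the start site are printed for 6 of them, 5′ to 3′ on the strand of the gene. These are Acadm and Acadvl, whose windows hold a motif, Hadha and Hadhb, which lie head to head, and Ehhadh and Pdk4. The windows of Cpt2 and Acadl, genes also called below, hold no motif and are not printed. Capitals mark AGGTCA, the core element that nuclear receptors such as the PPARs and the estrogen-related receptors are known to bind, or its reverse complement.
Acadm, chr3:153944644-153944893, minus strand: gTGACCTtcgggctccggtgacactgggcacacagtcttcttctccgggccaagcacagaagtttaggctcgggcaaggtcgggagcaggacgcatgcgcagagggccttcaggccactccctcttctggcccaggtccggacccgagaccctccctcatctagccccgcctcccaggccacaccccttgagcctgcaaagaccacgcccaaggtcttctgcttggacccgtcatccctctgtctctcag
Acadvl, chr11:70015429-70015678, minus strand: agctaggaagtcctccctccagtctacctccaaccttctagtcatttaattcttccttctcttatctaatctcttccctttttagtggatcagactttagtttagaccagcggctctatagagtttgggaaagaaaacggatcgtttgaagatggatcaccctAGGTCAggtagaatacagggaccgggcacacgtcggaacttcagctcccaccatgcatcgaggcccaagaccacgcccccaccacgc
Ehhadh, chr16:21787835-21788084, minus strand: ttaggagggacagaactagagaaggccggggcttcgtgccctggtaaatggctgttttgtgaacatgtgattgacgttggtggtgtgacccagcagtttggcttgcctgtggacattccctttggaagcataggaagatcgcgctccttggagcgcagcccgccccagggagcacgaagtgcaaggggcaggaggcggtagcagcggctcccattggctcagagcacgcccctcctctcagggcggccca
Hadha, chr5:30154981-30155230, minus strand: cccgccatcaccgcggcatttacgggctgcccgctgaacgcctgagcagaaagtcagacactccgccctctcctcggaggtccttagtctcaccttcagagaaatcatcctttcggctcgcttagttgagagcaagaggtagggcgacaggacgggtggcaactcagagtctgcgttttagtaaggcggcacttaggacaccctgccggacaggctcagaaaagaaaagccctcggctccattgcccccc
Hadhb, chr5:30155003-30155252, plus strand: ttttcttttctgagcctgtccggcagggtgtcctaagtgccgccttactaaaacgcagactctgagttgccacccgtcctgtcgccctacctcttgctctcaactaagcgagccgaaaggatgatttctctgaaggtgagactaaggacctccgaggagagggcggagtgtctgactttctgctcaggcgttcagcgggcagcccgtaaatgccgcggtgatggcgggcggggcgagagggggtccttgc
Pdk4, chr6:5496279-5496528, minus strand: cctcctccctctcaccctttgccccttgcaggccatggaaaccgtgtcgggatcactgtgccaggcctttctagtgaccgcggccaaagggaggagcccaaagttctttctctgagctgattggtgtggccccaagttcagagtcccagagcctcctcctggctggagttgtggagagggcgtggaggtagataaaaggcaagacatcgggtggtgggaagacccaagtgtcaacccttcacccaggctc
On both strands, 16.3% of 32851 RefSeq promoters of 300 bases held AGGTCA, and among the 8 genes the windows of Acadm and Acadvl held it. The match lay 249 bases before the start site in Acadm, on the opposite strand, and 87 bases before it in Acadvl. The longer motifs AGGTCANAGGTCA, a direct repeat of that element, and TCAAGGTCA, which also contains it, were found in 0.0396% and 0.423% of all promoters and in none of the 8 windows. Hadha and Hadhb lie head to head on chromosome 5, with start sites 273 bases apart, and their 2 printed windows share 228 bases read from opposite strands.

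The probes are named for Hadha and Cpt1b, because their probes differed in what they measured, and for Ehhadh, because its single probe carried the largest difference. The first 30 bases of each probe are given with the position of the probe on mm9, as the array files give it, all on the minus strand.
Cpt1b, chr15:89246889-89246948: taatgggcttcttacctgctttgaaatggg
Cpt1b, chr15:89247322-89247381: ccaagcactgttggacatcgccgaactttt
Hadha, chr5:30446215-30446274: ggaagcaggaaaaagaccaaggctagcctt
Hadha, chr5:30473804-30473863: atttctaccaactacagttatgagtcgtat
Hadha, chr5:30480638-30480697: cccaaatctgtaagggcaaatgtaacttca
Ehhadh, chr16:21761914-21761973: atggccagatttcaggaatgtgttttctat

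The level of a gene is its normalised log2 intensity, so that a difference of 1 is a doubling of signal, and levels of different genes cannot be compared. Each comparison was made within a tissue with limma, from a fit of all 21 arrays of that tissue with 7 group means, over 15845 genes in aorta and 14201 in muscle. A gene was called when its p-value adjusted by the Benjamini-Hochberg method was below 0.05, and the threshold of the study's methods, an unadjusted p of 0.05, is named where it is used. Of the 12 probes, 11 were well above background on all 42 arrays and 1 of Hadha on 38, so that each gene had a probe above background on every array. The replicates of a group are its 3 mice, and this number limits the precision.

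Some arrays stood apart from their groups. Healthy aorta 1 had a mean correlation of 0.876 with the other healthy aortas and a mean of 9.16 over 8 smooth muscle markers, against 12.16 and 11.50 on healthy aorta 2 and 3 and 11.49 to 13.34 on the 18 KK/Ay aortas. Healthy muscle 3, which shared its slide with aorta arrays, had a mean of 16.32 over 10 skeletal muscle markers, against 16.66 and 16.85 on the other healthy muscles, and a mean of 10.11 over 6 macrophage markers, against 9.34 and 8.92. Calls and list counts that change without these arrays are given both ways. The aorta samples held all 8 smooth muscle markers, but also brown fat, heart and skeletal muscle markers at levels that varied between arrays: the mean of 9 cardiac markers ran from 7.18 to 11.46 and that of 10 skeletal muscle markers from 7.67 to 15.41. In such bulk samples fewer cells of a type and less RNA per cell cannot be told apart.

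In aorta, Ehhadh was far lower in both untreated KK/Ay groups than in healthy mice, and it was the single gene of the 9 to be called. Its levels were 11.56, 10.73 and 11.87 in healthy aorta, 8.84, 8.15 and 8.56 in diabetic aorta and 8.33, 8.09 and 7.88 in macroangiopathy aorta. The lowest healthy array thus lay well above the highest array of either model group. The log2 difference was -2.87 (SE 0.46, n = 3 and 3, 95% confidence interval -3.84 to -1.90, limma adjusted p = 0.0027) in A vs G, or 7.32-fold lower, and -3.29 (SE 0.46, interval -4.26 to -2.32, adjusted p = 0.000813) in C vs G, or 9.76-fold lower. These contrasts share the healthy arrays. Of all genes tested, 3.43% were called in A vs G, 1.91% as lower, and 6.36% in C vs G, 3.11% as lower. Groups that did not overlap, with the model lower, were found for 8.08% and 11.3% of genes. Over all 18 KK/Ay aortas, treated ones included, Ehhadh lay between 7.41 and 10.01 with a median of 8.51, still below the 10.73 of the lowest healthy array.

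**Figure D1:**
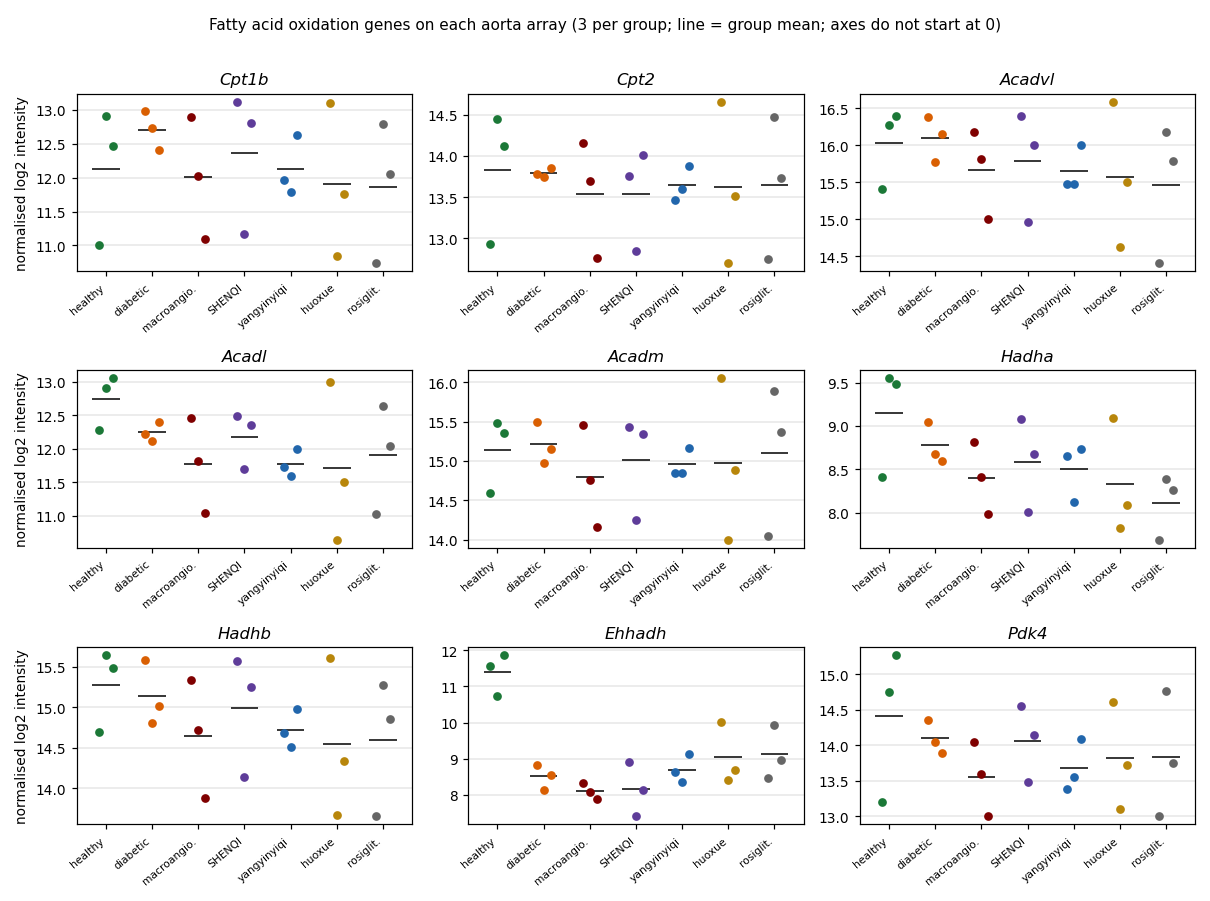
Each point is the normalised log2 intensity of a gene on 1 aorta array, in the 7 groups along the x axis, with a line at the group mean and axes that do not start at 0. Ehhadh separates the healthy arrays, at 10.73 to 11.87, from the 18 KK/Ay arrays, at 7.41 to 10.01, while for the other 8 genes the healthy arrays lie among the KK/Ay arrays in part or in whole.

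Within slides the difference in Ehhadh could be read for diabetic and SHENQI aortas. On slide 1, which held 2 healthy aortas with diabetic aorta 1 and SHENQI aorta 1, the log2 difference of the KK/Ay mean from the healthy mean was -2.85, and on slide 2, with 1 healthy and 2 SHENQI aortas, it was -2.95. Diabetic aorta 1 alone differed by -2.88 from the healthy mean of slide 1. The macroangiopathy aortas all lay on slide 6, without a healthy aorta, so slide and group cannot be told apart in C vs G. With slide as a random block the C vs G difference was -3.24 (adjusted p = 0.0017). Without healthy aorta 1 it was -2.79 (adjusted p = 0.00895) in A vs G and -3.20 (adjusted p = 0.00297) in C vs G. Of all genes, 2.63% and 3.89% were called there. With slide as a fixed term the A vs G difference was -2.90 with an adjusted p of 0.0792, and in a fit of the 6 arrays alone -2.87 with an adjusted p of 0.0551, so the call was lost there and the value was not.

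None of the other 8 genes was called by limma in aorta, and none passed an unadjusted p of 0.05 in either contrast, as 18.6% and 24.2% of all genes did. In A vs G their log2 differences ran from -0.51 for Acadl to 0.57 for Cpt1b with adjusted p-values from 0.628 to 0.98. In C vs G all were below 0, from -0.98 for Acadl to -0.12 for Cpt1b, with adjusted p-values from 0.238 to 0.935, and the median over the 9 genes was -0.63 against 0.02 over all genes tested. Acadm shows how wide the spread was: it stood at 14.59, 15.48 and 15.35 in healthy, at 15.50, 14.98 and 15.15 in diabetic and at 15.46, 14.76 and 14.16 in macroangiopathy aorta. Arrays of 1 group differed more than the group means did. The arrays of Pdk4 overlapped too, with 13.20, 14.75 and 15.27 in healthy, 14.36, 14.05 and 13.89 in diabetic and 14.05, 13.59 and 13.00 in macroangiopathy aorta. Healthy aorta 1 was the lowest healthy array for each of these 8 genes. Without it none was called either, but the values moved: they ran from -0.91 for Pdk4 to 0.01 for Cpt1b in A vs G and from -1.47 for Pdk4 to -0.62 for Acadm in C vs G, where Pdk4, Hadha (-1.11) and Acadl (-1.21) then passed an unadjusted p of 0.05. The median over the 9 genes without it was -0.49 in A vs G, against -0.14 with it, and -0.92 in C vs G.

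Within groups the 8 genes went up and down together. After each group's mean was subtracted, their 28 pairs had correlations between 0.86 and 0.99 over the 21 aorta arrays, with a median of 0.94, and the 8 pairs with Ehhadh between 0.62 and 0.79. In the 17 arrays scanned on 1 day these ranges were 0.87 to 0.99 and 0.73 to 0.84. The same deviations followed the mean of 9 brown fat markers, with correlations of 0.91 to 0.97 for the 8 genes and 0.60 for Ehhadh. For the 8 genes the correlations were 0.53 to 0.64 with cardiac markers and -0.56 to -0.29 with macrophage markers. They were 0.00 to 0.34 with smooth muscle, 0.17 to 0.26 with slow fibre and -0.17 to 0.05 with skeletal muscle markers. Without subtraction of the group means, Pearson's correlations with the brown fat marker mean were 0.67 to 0.86 and Spearman's 0.74 to 0.89, and Pearson's were 0.70 to 0.94 without the 2 arrays farthest from the median marker level. These are descriptions over 21 arrays that share platform and normalisation, not tests. The 5 genes whose pattern over the aorta arrays was most like the mean of the 9 were Uqcrc2, Idh3g and Clybl with a correlation of 0.98 each and Idh3a and Lace1 with 0.97.

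The brown fat markers moved with Ehhadh between healthy and KK/Ay aortas as well, in part. Their mean was 10.65, 12.44 and 12.27 in healthy aorta and 9.83 to 11.67 on the 18 KK/Ay aortas. Of the 8 markers tested, 1 was lower and 0 were higher in A vs G, and 2 were lower in C vs G: Elovl3, a fatty acid elongase induced by cold, fell by 5.22 (adjusted p = 0.000319) and 4.76 on the log2 scale and was well above background on 3 of 3 healthy, 1 of 3 diabetic and 2 of 3 macroangiopathy arrays, and Slc27a2, a fatty acid transporter of liver and brown fat, fell by 1.49 in C vs G. Without healthy aorta 1, 2 markers were lower in A vs G (Elovl3 and Dio2, the deiodinase that activates thyroid hormone, at -2.82) and 4 in C vs G, with Dio2 at -2.61 and the potassium channel gene Kcnk3 at -2.53 added, and the list median in C vs G went from -1.58 to -2.13. The defining marker Ucp1 averaged 16.30 in healthy, 16.63 in diabetic and 16.57 in macroangiopathy aorta, and Cidea 16.40, 16.29 and 16.35. On healthy aorta 1, which stood apart, the marker mean lay within the KK/Ay range while Ehhadh, at 11.56, lay above every KK/Ay aorta. On the other healthy aortas the marker mean lay above that range. Smooth muscle markers ran the other way, with 0 of 8 called by limma in A vs G (6 higher at an unadjusted p of 0.05) and 2 higher in C vs G (Smtn by 2.47, Lmod1 by 2.71). Without healthy aorta 1, whose smooth muscle mean was the lowest, 0 of 8 were called in either contrast and the list median went from 1.87 to 0.93 and from 2.32 to 1.38. In that fit, of 9 white fat and shared fat cell markers, Lep (2.71) was higher and Retn (-3.84) lower in A vs G. Retn (-4.34) and Cfd (-2.35) were lower in C vs G. Of 4 liver markers 1 was lower in each contrast, and of 7 red cell markers 1 was higher in C vs G. The part of these tissue differences in the Ehhadh difference was not tested.

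**Figure D2:**
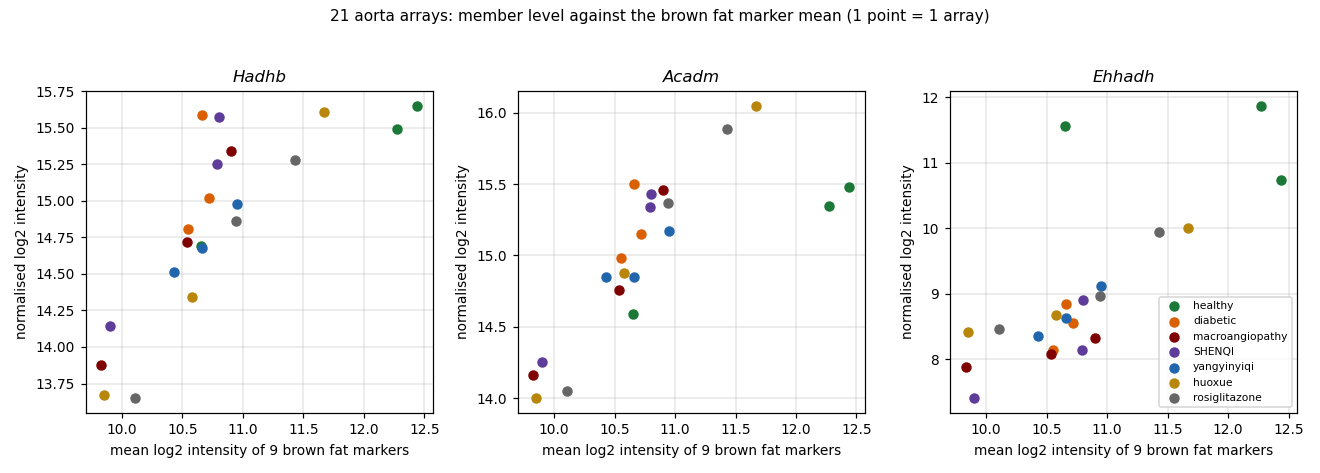
Each point is 1 of the 21 aorta arrays, with the mean log2 intensity of 9 brown fat markers on the x axis and the normalised log2 intensity of Hadhb, Acadm or Ehhadh on the y axis, coloured by group. Hadhb and Acadm rise with the markers across the arrays. For Ehhadh the 3 healthy arrays, at 10.73 to 11.87, lie above the KK/Ay arrays. Of these 3 only healthy aorta 1, at 10.65, has a marker mean within the KK/Ay range of 9.83 to 11.67.

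Among other genes of the pathway in aorta, few were called, and those few were lower. Of 11 genes of fatty acid activation and the carnitine shuttle, 0 were higher and 2 lower in both contrasts: the acyl-CoA synthetase Acsl5 by -2.60 (adjusted p = 0.00401) and -2.43 (adjusted p = 0.00583) and the transporter Slc27a1 by -1.70 (adjusted p = 0.0108) and -2.25 (adjusted p = 0.00148), in A vs G and C vs G respectively. Of 13 genes of peroxisomal beta-oxidation, the pathway of Ehhadh, 1 was lower in each contrast, the dienoyl-CoA reductase Decr2, by -2.19 (adjusted p = 0.00799) and -2.41 (adjusted p = 0.00389), and the list median was -0.20 and -0.38. None of 14 other enzymes of mitochondrial beta-oxidation was called by limma in either contrast, nor at an unadjusted p of 0.05 (0 of 14), and their medians were 0.07 and -0.30. The 3 genes of the electron transfer flavoprotein arm, 3 of malonyl-CoA control, 9 regulators of oxidation, 14 citrate cycle enzymes, 5 thioesterase and uncoupling genes and 4 ketone body enzymes gave 0 calls each in both contrasts. At an unadjusted p of 0.05, 1 regulator was lower and 1 ketone body enzyme higher in each contrast, 1 citrate cycle enzyme was higher in A vs G, and 1 gene each of the citrate cycle, malonyl-CoA and thioesterase lists was lower in C vs G. In the pyruvate dehydrogenase list, 9 genes, 0 were called in A vs G (3 at an unadjusted p of 0.05, 1 higher and 2 lower), and Pdk1, another kinase of that complex, was lower in C vs G by -1.20 (adjusted p = 0.0354). Without healthy aorta 1, Acaca, which makes malonyl-CoA, was called lower in both contrasts, by -2.53 (adjusted p = 0.0182) and -2.92 (adjusted p = 0.00664), and Pdk1 in A vs G as well, by -1.26 (adjusted p = 0.0307). The counts of the other lists of the pathway did not change, and their medians lay lower, at -0.16 and -0.44 for the mitochondrial and -0.57 and -0.62 for the peroxisomal list.

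In skeletal muscle, enzymes of mitochondrial beta-oxidation were higher in the KK/Ay model groups than in healthy mice, and Pdk4 was lower in the macroangiopathy group. In A vs G, 4 of the 9 genes rose and 0 fell, where 26.4% of all genes were called, 15.6% as higher and 10.8% as lower. In C vs G, 4 rose and 1 fell, where 24.8% of all genes were called, 14.7% as higher and 10.2% as lower. An unadjusted p of 0.05 was passed by 6 upward and 2 downward in A vs G and by 4 upward and 2 downward in C vs G, against 38.0% and 36.7% of all genes in either direction. Calls were thus common on these arrays. The median log2 difference over the 9 genes was 0.49 in A vs G and 0.37 in C vs G, against 0.03 and 0.04 over all genes tested.

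Acadm, the medium-chain dehydrogenase, rose most. It stood at 13.76, 13.98 and 12.84 in healthy, 14.52, 14.57 and 14.77 in diabetic and 14.55, 14.45 and 14.56 in macroangiopathy muscle, so that the groups did not overlap. Groups did not overlap, with the model higher, for 17.5% of all genes in A vs G and 17.4% in C vs G. The log2 difference was 1.09 (SE 0.20, n = 3 and 3, interval 0.67 to 1.51, limma adjusted p = 0.000736) in A vs G, or 2.13-fold, and 0.99 (adjusted p = 0.00167) in C vs G, or 1.99-fold. On the 18 KK/Ay muscles it lay between 14.22 and 14.77, above each healthy array.

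The long-chain dehydrogenase Acadl also rose. Its levels were 11.76, 11.71 and 11.41 in healthy, 12.30, 12.22 and 12.35 in diabetic and 12.24, 12.06 and 12.20 in macroangiopathy muscle, again without overlap, and the differences were 0.67 (SE 0.12, interval 0.40 to 0.93, adjusted p = 0.000928) and 0.54 (adjusted p = 0.00458). Acadvl, for very long chains, stood at 14.82, 14.97 and 14.22 in healthy and 15.01, 15.06 and 15.11 in diabetic muscle, a difference of 0.39 that passed an unadjusted p of 0.05 alone (adjusted p = 0.0615). In C vs G it differed by 0.20 and passed neither threshold.

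Of the carnitine shuttle, Cpt2 rose. Its levels were 12.31, 12.34 and 11.67 in healthy, 12.71, 12.75 and 12.85 in diabetic and 12.70, 12.46 and 12.86 in macroangiopathy muscle, with each model array above each healthy one. The differences were 0.66 (SE 0.16, interval 0.33 to 0.99, adjusted p = 0.00503), or 1.58-fold, and 0.57 (adjusted p = 0.0137). Cpt1b, with 11.56, 12.42 and 11.20 in healthy and 12.26, 12.12 and 12.26 in diabetic muscle, overlapped between groups and differed by 0.49 (adjusted p = 0.0831) in A vs G and 0.37 in C vs G. Its 2 probes did not read alike. The one at chr15:89246889-89246948 gave 0.67 (adjusted p = 0.00871) and 0.61 (adjusted p = 0.0159), and the one at chr15:89247322-89247381 gave 0.30 (adjusted p = 0.36) and 0.13 (adjusted p = 0.719).

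Of the trifunctional protein, Hadhb rose, and Hadha was not called as the mean of its probes. Hadhb stood at 13.65, 13.78 and 12.62 in healthy, 14.12, 14.07 and 14.17 in diabetic and 13.97, 13.98 and 14.08 in macroangiopathy muscle, and the differences were 0.77 (SE 0.20, interval 0.34 to 1.20, adjusted p = 0.0103), or 1.70-fold, and 0.66 (adjusted p = 0.0251). Hadha, whose window upstream is largely that of Hadhb, differed by 0.30 (adjusted p = 0.17) and 0.14 as the mean of its 3 probes. Those probes averaged 11.09, 6.38 and 7.43 over the muscle arrays, in the order listed above, so 2 of them were dim. The brightest, at chr5:30446215-30446274, gave 0.67 (limma adjusted p = 0.0362) in A vs G and 0.16 in C vs G. The other 2 gave 0.08 and 0.16 in A vs G and -0.02 and 0.28 in C vs G. With the brightest probe of each gene in place of the mean, 6 of the 9 genes were called in each contrast, where 29.7% and 27.7% of all genes were.

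Pdk4 fell in the macroangiopathy group. Its levels were 15.40, 15.84 and 15.41 in healthy, 14.44, 14.88 and 14.58 in diabetic and 14.96, 13.31 and 14.21 in macroangiopathy muscle, and no model array reached the healthy range, which held for 13.1% and 12.6% of all genes. The difference was -1.39 (SE 0.38, interval -2.18 to -0.59, adjusted p = 0.0127) in C vs G, or 2.62-fold lower. Without macroangiopathy muscle 2, the array at 13.31, the difference was -0.96 with an adjusted p of 0.0737. In A vs G it was -0.91 (interval -1.71 to -0.12), with an unadjusted p below 0.05 and an adjusted p of 0.0833, so the diabetic group alone did not pass. On the 18 KK/Ay muscles Pdk4 lay between 13.16 and 14.96, below the lowest healthy array. Ehhadh, at 8.92, 8.46 and 7.77 in healthy and 7.93, 7.68 and 8.08 in diabetic muscle, overlapped between groups and differed by -0.49 (adjusted p = 0.0899) and by -0.51 in C vs G (adjusted p = 0.0773).

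**Figure D3:**
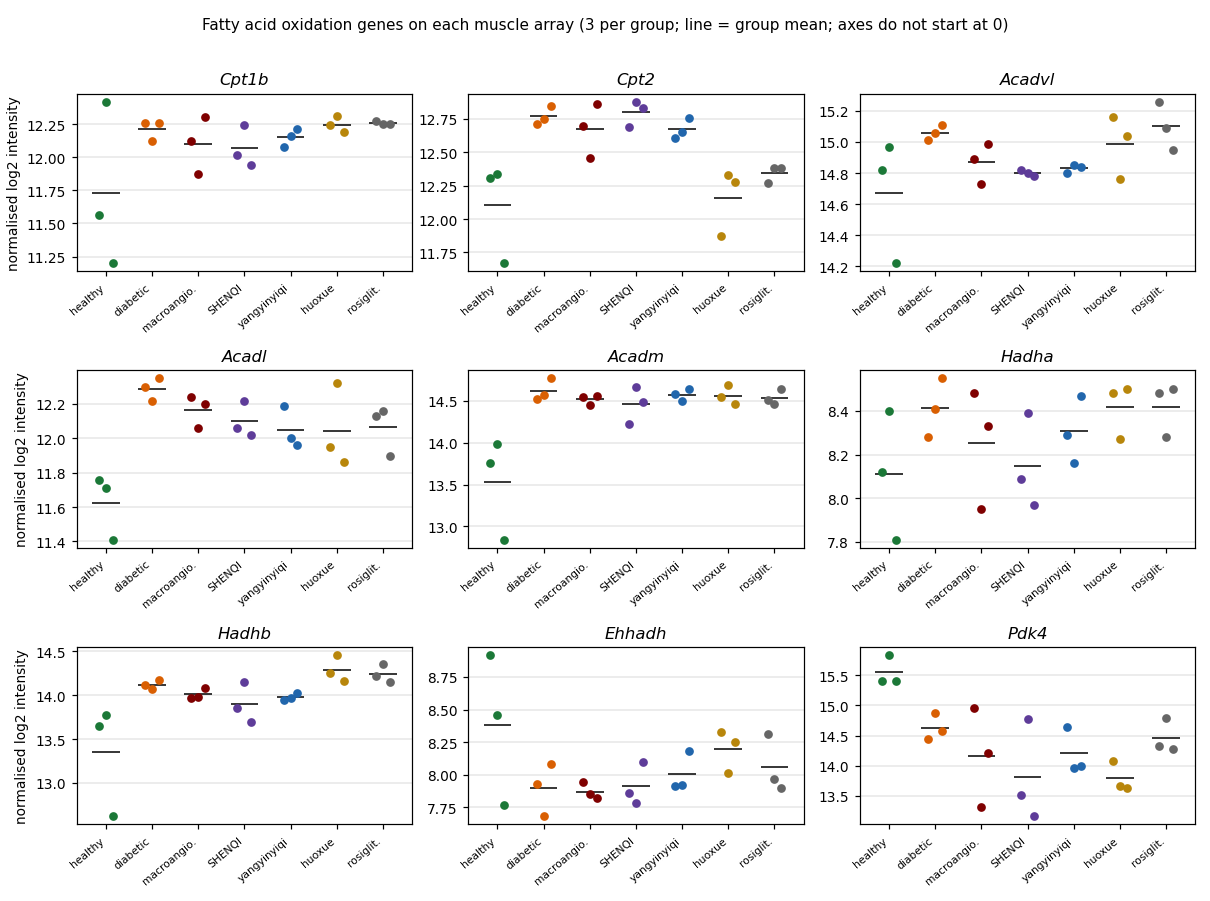
Each point is the normalised log2 intensity of a gene on 1 muscle array, in the 7 groups along the x axis, with a line at the group mean and axes that do not start at 0. Acadm lies above the healthy arrays on each KK/Ay array (14.22 to 14.77 against 12.84 to 13.98), Pdk4 lies below them (13.16 to 14.96 against 15.40 to 15.84), and healthy muscle 3 is the lowest healthy array for most genes.

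Healthy muscle 3, which stood apart, was the lowest healthy array for 8 of the 9 genes, Pdk4 being the exception. Without it, Acadm (0.75, adjusted p = 0.000277), Acadl (0.56, adjusted p = 0.0034), Cpt2 (0.44, adjusted p = 0.0155) and Hadhb (0.41, adjusted p = 0.0144) were still called in A vs G, and Ehhadh was called lower, by -0.79 (adjusted p = 0.00167). In C vs G without it, Acadm (0.65, adjusted p = 0.000888) and Acadl (0.43, adjusted p = 0.0161) were called higher and Pdk4 (-1.46, adjusted p = 0.018) and Ehhadh (-0.82, adjusted p = 0.00139) lower, while Cpt2 (0.35, adjusted p = 0.0514) and Hadhb (0.30, adjusted p = 0.0649) were not. Without healthy muscle 3 the median over the 9 genes was 0.22 in A vs G and 0.11 in C vs G. Of all genes, 30.7% and 30.1% were called there. Without healthy muscle 2 instead, 7 genes were called in A vs G, where 33.3% of all genes were, with Acadvl at 0.54, Cpt1b at 0.83 and Hadha at 0.45 added to the first 4. In C vs G the count was 3 without macroangiopathy muscle 2 or 3 and 6 without healthy muscle 2, with 20.4%, 17.9% and 32.1% of all genes called, and Hadhb was not called without any 1 of the 3 macroangiopathy muscles (0.62 to 0.68, adjusted p = 0.0519 to 0.0761).

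Healthy and model muscles were hybridised on different slides, so slide and group cannot be told apart in A vs G and C vs G. Slide 3, however, held healthy muscle 1 and 2 together with rosiglitazone muscle 2 and 3. There the KK/Ay mean was higher by 0.68 for Acadm, 0.53 for Hadhb, 0.30 for Acadl and 0.05 for Cpt2, and Pdk4 differed by -1.08 and Ehhadh by -0.76. With scan day as a fixed term, Acadm (0.79, adjusted p = 0.0225) was higher and Ehhadh (-1.17, adjusted p = 0.00804) lower in A vs G, and likewise in C vs G (0.69 and -1.20), and no other gene of the 9 was called. With slide as a random block the 4 genes that rose were called in both contrasts, and Pdk4 in C vs G was not (-1.41, adjusted p = 0.0596).

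**Figure D4:**
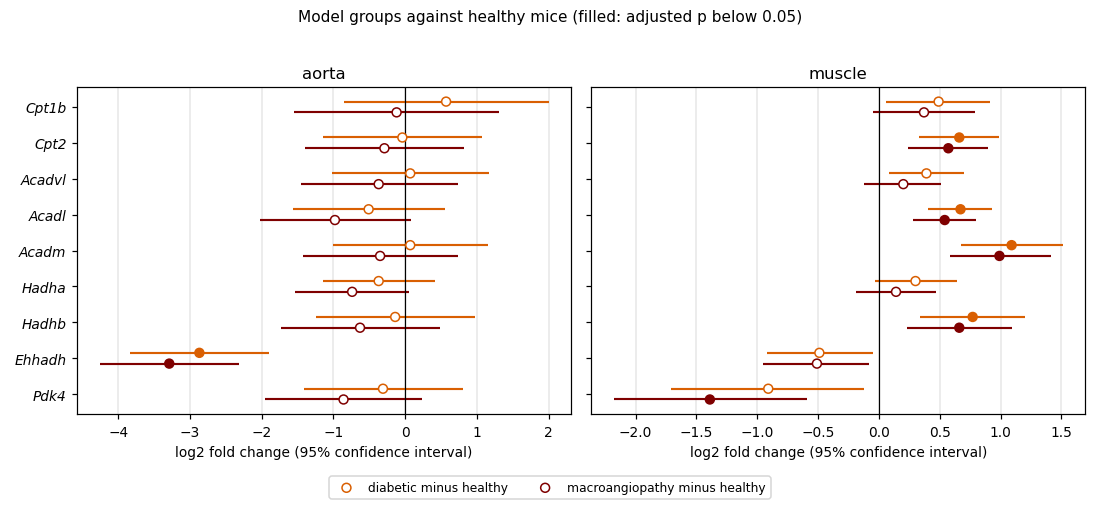
Log2 differences of the diabetic and the macroangiopathy group from healthy mice for the 9 genes in aorta and muscle, with 95% confidence intervals as bars and filled points for an adjusted p below 0.05. Ehhadh in aorta, at -2.87 and -3.29, lies far from 0, and in muscle Cpt2, Acadl, Acadm and Hadhb lie to the right of 0 in both contrasts.

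Among other enzymes of mitochondrial beta-oxidation in muscle, more were called higher than lower. A vs G showed 8 of 14 higher and 1 lower, and C vs G 7 higher and 1 lower, with medians of 0.56 and 0.46. Acad10 differed by 1.22 (adjusted p = 2.39e-05) and 0.99, and Hadh, which acts on short chains, by 1.22 (adjusted p = 0.000494) in A vs G. The gene of that list that fell was Acadsb (-0.67, adjusted p = 0.000239, and -0.62), which serves isoleucine breakdown. All 3 genes of the electron transfer flavoprotein arm, which takes electrons from the acyl-CoA dehydrogenases, were higher in A vs G, with Etfb at 0.44, Etfa at 0.46 and Etfdh at 0.45, and 2 of 3 in C vs G (1 of 3, Etfdh, without healthy muscle 3). Without healthy muscle 3 the count of the mitochondrial list was 6 higher and 1 lower with a median of 0.23 in A vs G, and 6 higher and 2 lower with a median of 0.29 in C vs G. Acad8, of valine breakdown, was among the higher ones there (0.97 and 1.09), so amino acid enzymes of the list went both ways.

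For steps upstream of the mitochondrion and in the peroxisome the calls changed with healthy muscle 3. Of 11 genes of activation and the carnitine shuttle 1 was higher in A vs G (Crat, 0.60) and 1 higher and 1 lower in C vs G (Crat, 0.57, and Cpt1a, the liver form of the first carnitine enzyme, -0.38). Without healthy muscle 3, A vs G gave 4 upward calls and 1 downward and C vs G 3 and 2, where 30.7% and 30.1% of all genes were called: Crat, Acsl6 and Slc25a20, the acylcarnitine carrier, were higher and Slc27a1 lower in both, Acsl3 higher in A vs G and Cpt1a lower in C vs G. Of 12 peroxisomal genes 2 were higher and 1 lower in both contrasts, with the thiolases Acaa1b at 1.02 (adjusted p = 5.46e-05) and Acaa1a at 0.26 in A vs G. The gene that fell was Decr2, by 2.02 on the log2 scale in C vs G, well above background on 3 of 3 healthy and 1 of 3 macroangiopathy arrays. Without healthy muscle 3 the peroxisomal count was 1 higher and 2 lower in both contrasts, with Hsd17b4, the other bifunctional enzyme of the peroxisome, lower by -0.55 in each. Of 3 genes that set malonyl-CoA, the inhibitor of Cpt1b, Acaca, which makes it, was lower in A vs G (-0.53) and Mlycd, which breaks it down, higher (0.38). Of 5 thioesterase and uncoupling genes 1 was higher, Acot8 by 0.76 in A vs G. Among 3 ketone body enzymes 0 were called by limma in either contrast, with 1 at an unadjusted p of 0.05 in A vs G and 0 in C vs G. Without healthy muscle 3, Oxct1, which starts the breakdown of ketone bodies, was called lower in A vs G (-0.40, adjusted p = 0.0194) and Mlycd higher in C vs G too (0.40).

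On the side of glucose stands the pyruvate dehydrogenase complex, which Pdk4 inhibits. Of 9 genes of the complex and its other kinases and phosphatases, 5 were higher and 0 lower in both contrasts, among them in A vs G the phosphatase Pdp1 (1.70), which switches the complex on, and the subunits Pdhx (1.39) and Dlat (0.84). Of 14 citrate cycle enzymes, 5 were higher and 0 lower in both contrasts, with Suclg1 at 0.75, Mdh2 at 0.62 and Idh3a at 0.73 in A vs G. Among 9 transcriptional regulators, A vs G called 2 higher and 1 lower: Ppara, the receptor that drives many oxidation genes, fell by 1.13 on the log2 scale (adjusted p = 2.47e-05), and Esrra, an estrogen-related receptor, and its coactivator Ppargc1b rose by 0.63 and 0.76. In C vs G, Ppara fell by 1.08, and Esrra and Tfam, which maintains mitochondrial DNA, rose by 0.67 and 0.62. Without healthy muscle 3 the pyruvate dehydrogenase list had 4 higher in A vs G and 6 in C vs G, the citrate cycle 4 and 5, and the regulators 3 and 4 higher with Ppara still lower, while Ppargc1b was no longer called. Among those of the pyruvate dehydrogenase list was Pdk2, another kinase of the complex, at 0.80 in A vs G and 0.74 in C vs G. So a kinase and the phosphatase Pdp1, with opposite actions on the complex, were both higher.

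Markers of fibre type and of other cells moved in the same contrasts. Of 8 slow fibre markers, 6 were higher in A vs G and 2 in C vs G, and their mean was 13.65 to 13.80 on healthy arrays, 14.19 to 14.51 on diabetic and 13.86 to 14.22 on macroangiopathy arrays. Tnnc1 differed by 1.71, Tnni1 by 0.99 and Tnnt1 by 0.68 in A vs G. Of 10 skeletal muscle markers, 1 was higher (Myh4, the fastest myosin, by 0.36). Of 6 brown fat markers tested, 4 were higher in A vs G and 3 in C vs G. The mean of all 9 listed, those too dim to test included, was 7.57 to 7.95 on healthy and 7.97 to 8.51 on KK/Ay arrays. Ucp1 was well above background on 0 of 3 healthy and on 3 of 3 diabetic arrays. Of 6 macrophage markers, 5 were lower in A vs G and 4 in C vs G. Without healthy muscle 3, 4 slow fibre markers were higher in A vs G and 2 in C vs G, and 2 skeletal muscle markers were higher (Myh4 and Tnnc2). Brown fat markers gave 3 higher in each contrast: Cidea, Dio2 and Ucp1 in A vs G and Cox7a1, Dio2 and Ucp1 in C vs G. Macrophage markers gave 3 lower in each (Cd14, Csf1r and Emr1). Of 9 white fat and shared fat cell markers 1 was higher and 2 lower in each. Lep differed by 1.66 and 1.77, Cfd by -4.01 and -4.06 and Retn by -3.30 and -3.91. Red cell markers, 6 tested, gave 5 lower in A vs G and 1 in C vs G. Endothelial markers, 6 tested, gave 2 and 1 lower, and liver markers, 2 tested, 1 and 2 lower. The part of these markers in the differences of the 9 genes was not tested.

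The comparison of the macroangiopathy with the diabetic group asks what diet and L-NAME add in KK/Ay mice. None of the 9 genes was called in either tissue or passed an unadjusted p of 0.05. Over all genes limma called 0 as well, and 1.79% in aorta and 3.70% in muscle passed an unadjusted p of 0.05. In aorta the differences were all below 0, from -0.69 to -0.25, with a median of -0.44. In muscle they ran from -0.47 for Pdk4 to -0.03, with a median of -0.11.

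The treated groups are compared with the untreated macroangiopathy group, whose arrays all 4 contrasts share. In aorta 0 of the 9 genes were called in any of them, as 0 of all genes were, while 1.35% passed an unadjusted p of 0.05 with SHENQI compound, 0.379% with yangyinyiqi, 0.770% with huoxue and 2.88% with rosiglitazone. Ehhadh differed most with yangyinyiqi, huoxue and rosiglitazone. It stood at 8.90, 7.41 and 8.15 with SHENQI compound, 8.63, 8.36 and 9.12 with yangyinyiqi, 10.01, 8.42 and 8.68 with huoxue and 8.46, 9.94 and 8.97 with rosiglitazone, against 8.33, 8.09 and 7.88 without treatment. All arrays of the last 3 treatments lay above the untreated ones, as did 3.80%, 3.97% and 5.16% of genes. With rosiglitazone the difference was 1.02 (SE 0.46, interval 0.05 to 1.99, limma adjusted p = 1), or 2.03-fold, which passed an unadjusted p of 0.05 alone. With huoxue it was 0.93, with yangyinyiqi 0.60 and with SHENQI compound 0.05, and none of these passed either threshold. The highest arrays with huoxue and with rosiglitazone were also those with the highest brown fat marker means among KK/Ay aortas, up to 11.67. For the other 8 genes in aorta the differences lay between -0.29 and 0.51, and all their intervals held 0. The widest were those of Cpt1b, whose bounds reached -1.58 with rosiglitazone and 1.78 with SHENQI compound. Hadha, with the smallest SE (0.37), ran from -1.08 to 0.50 with rosiglitazone. That SE is of a mean with 2 dim probes, and the brightest Hadha probe alone had an SE of 0.65. Of these aortas only yangyinyiqi aorta 1 shared slide 6 with the untreated ones, and there Ehhadh differed by 0.53. The SHENQI aortas lay on slides with no link to slide 6, so slide and treatment cannot be told apart for them. Huoxue and rosiglitazone aortas were linked to slide 6 only in steps, through slides 9 and 10 shared with other treated aortas.

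In muscle, Cpt2 was lower with huoxue. It stood at 11.87, 12.33 and 12.28 on huoxue and at 12.70, 12.46 and 12.86 on macroangiopathy arrays, without overlap, a difference of -0.51 (SE 0.16, interval -0.84 to -0.18, limma adjusted p = 0.0324), or 1.42-fold lower. That comparison called 17.7% of all genes, 9.92% as lower, and arrays did not overlap for 29.0% of genes upward and 20.1% downward. The huoxue muscles lay on 1 slide with none of the macroangiopathy muscles, so slide and treatment cannot be told apart. These arrays were also dimmer: 49.06% to 52.34% of probes were above background on huoxue muscles and 56.0% to 61.11% on macroangiopathy muscles, with a median spot intensity of 65 to 75 and 87 to 111.5. The part of this gap in the Cpt2 difference was not tested. With slide as a random block Cpt2 was not called, nor without macroangiopathy muscle 1 or 3 (-0.50 and -0.42) or huoxue muscle 1 (-0.37). With rosiglitazone Cpt2 stood at 12.27, 12.38 and 12.38, a difference of -0.33 (interval -0.66 to 0.00, limma adjusted p = 0.228) that passed an unadjusted p of 0.05 alone. Those muscles, on slides 3 and 11, shared no slide with the untreated ones either, on slides 7 and 8, so slide and treatment cannot be told apart there. With rosiglitazone 5.51% of all genes were called, 21.6% passed the unadjusted threshold, and groups did not overlap for 20.6% upward and 15.6% downward. Hadhb was above the untreated arrays on all 3 huoxue arrays (14.25, 14.46 and 14.16) and all 3 rosiglitazone arrays (14.22, 14.35 and 14.15), by 0.28 and 0.23, and was not called in either.

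With SHENQI compound and yangyinyiqi the 9 genes in muscle differed from the untreated level by -0.35 to 0.12 and -0.12 to 0.13, none of which was called or passed an unadjusted p of 0.05. By limma 0 of all genes were called in either, and 1.22% and 1.18% passed an unadjusted p of 0.05. Pdk4, the lowest of these at -0.35, ran from 13.16 to 14.77 with SHENQI compound. The median over the 9 genes in muscle was -0.07 for SHENQI compound, 0.04 for yangyinyiqi, 0.12 for huoxue and 0.17 for rosiglitazone.

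**Figure D5:**
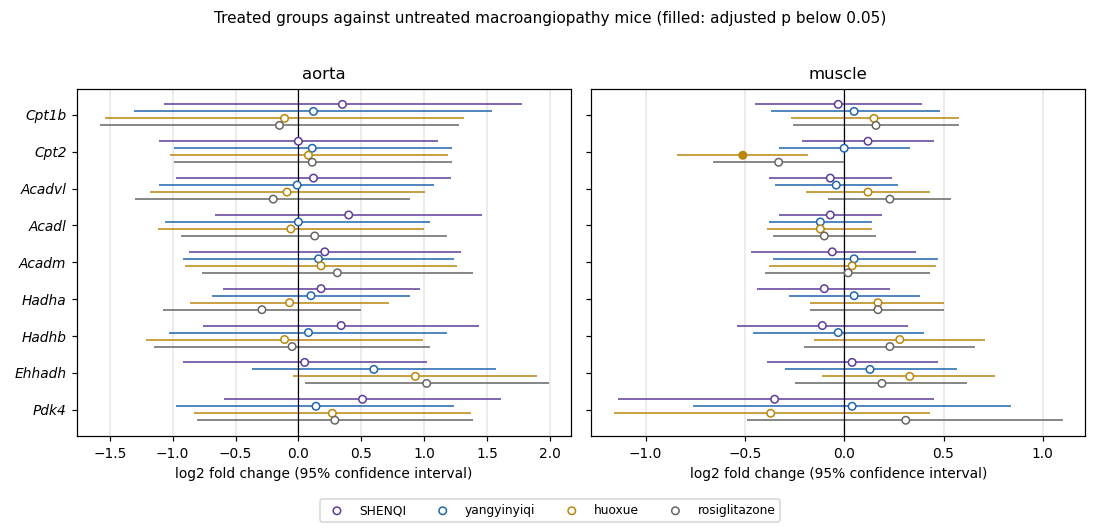
Log2 differences of the 4 treated groups from the untreated macroangiopathy group for the 9 genes in aorta and muscle, with 95% confidence intervals as bars and filled points for an adjusted p below 0.05. Cpt2 in muscle with huoxue (-0.51) is the filled point, and the largest aorta differences are those of Ehhadh with huoxue (0.93) and rosiglitazone (1.02).

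Other genes of the pathway were called with huoxue in muscle in both directions, in the comparison that called 17.7% of all genes and in which slide and treatment cannot be told apart. Of 14 other mitochondrial beta-oxidation enzymes 2 were higher and 2 lower (Acad8, of valine breakdown, -1.35, Acad10 -0.58, Acat1 0.47). Of 11 activation and shuttle genes 2 were lower, Acsl5 by -1.06 and Slc25a20, the carrier that moves acylcarnitine past the inner membrane to Cpt2, by -0.70. In the pyruvate dehydrogenase list 1 was higher and 4 were lower (Pdhx -2.07, Pdhb -1.29, Dld -0.64). Of 10 skeletal muscle markers 5 were lower, with a list mean of 16.40 to 16.56 against 16.85 to 16.87 on macroangiopathy arrays, and their part in the Cpt2 difference was not tested.

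Between tissues, over all 7 groups, 7 of the 9 genes differed where 76.9% of all genes did. The fit treated aorta and muscle samples as independent. Lower in muscle than in aorta were Cpt2 by -1.16, Ehhadh by -0.96, Hadhb by -0.86, Acadvl by -0.85, Acadm by -0.63 and Hadha by -0.26 on the log2 scale. Pdk4 was higher in muscle by 0.45, and Cpt1b (-0.05) and Acadl (0.00) passed no threshold. Over the KK/Ay arrays alone the Ehhadh median was 8.51 in aorta and 7.935 in muscle. The brightest Hadha probe averaged 11.71 in aorta and 11.09 in muscle. The brown fat marker mean was 9.83 to 12.44 on aorta and 7.57 to 8.51 on muscle arrays, and its part in these differences was not tested. From the signal that Feature Extraction itself processed, with the 75th percentile as the scale, 4 were called, and Acadm turned to 0.14. The effect of the model differed between the tissues for Ehhadh alone among the 9 genes: the muscle difference exceeded the aorta difference by 2.39 (SE 0.52, interval 1.33 to 3.44, limma adjusted p = 0.0162) in A vs G, where 0.890% of genes were called, and by 2.77 (interval 1.72 to 3.83, adjusted p = 0.00264) in C vs G, where 3.16% were. For Acadl the same terms were 1.17 (adjusted p = 0.333) and 1.52 (adjusted p = 0.107), and no other gene of the 9 passed after adjustment. Ehhadh stood at only 7.77 to 8.92 in healthy muscle, and how far the dim end of the array limits its fall there was not tested.

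In muscle the 9 genes were less alike than in aorta. The pooled SD within groups was 0.15 to 0.51 in muscle and 0.48 to 0.89 in aorta. The 28 pairs without Ehhadh had correlations of -0.48 to 0.90 with a median of 0.62 over the 21 muscle arrays, and without the 2 arrays farthest from the median of the members the median was 0.28. The genes most like the mean of the 9 were Col8a2 and Wif1 with 0.94, Acaa2, the thiolase that ends each round of mitochondrial beta-oxidation, with 0.92, and Pmpcb and Fbln7 with 0.91. In muscle the deviations of the 8 genes from their group means had correlations of 0.12 to 0.75 (median 0.68) with the skeletal muscle marker mean and of -0.74 to -0.29 (median -0.52) with the brown fat one. These values do not hold throughout: on the levels themselves, without the 2 arrays farthest from the median marker level, they were -0.52 to 0.69 (median -0.05) and -0.58 to 0.49 (median 0.30), and over the 18 KK/Ay muscles -0.69 to 0.85 (median -0.23) and -0.54 to 0.19 (median -0.10).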

How the data were processed

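The authors hybridised RNA of aorta and skeletal muscle, from 7 groups of 3 mice, to 42 Agilent mouse arrays with 1 colour, on 11 slides. The deposited scanner files of Agilent Feature Extraction 10.7, the version in the submitters' processing notes, give per spot the median intensity of spot and local background, the processed signal, and marks for spots above background, irregular or saturated. Processed log2 values per probe, deposited as well, had a median of 5.358 in each column and served as an alternative. Their centring is not stated. The study's methods name limma's background correction, quantile normalisation, lmFit and eBayes and a p-value below 0.05.

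Here the median intensities were corrected with normexp (offset 0, limma 3.58.1 in R 4.3.3 with data.table version 1.17.8), quantile normalised together (42 arrays) and expressed as log2. Irregular spots (3451 of all arrays) were then set to missing, and spots of a probe and probes of a gene were averaged. Control spots (1639 of 45018) were left out. The written plan named the mean intensity, which 34 of the 42 files lack, and did not name the masking. Testing in a tissue required a probe marked well above background on the 3 arrays of some group. Probes above background made up 57.9% to 73.5% per aorta array and 49.06% to 65.2% per muscle array. Each tissue was fitted with 7 group means. The difference between tissues and its dependence on the group came from a fit of all 42 arrays with 14 means, over 16176 genes. The fit was tested on simulated data. Tables and figures were made with Python 3.11.15, pandas 2.3.3 and matplotlib 3.10.9.

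The members and all lists were chosen with earlier results of these data known. Named were the 9 members, at most 3 genes per list with the smallest p among those called, the 5 genes most like the members per tissue, by Pearson's correlation with the mean of the scaled members over 21 arrays, and markers of other cell types beside results they moved with. Alternatives were another offset (50), the processed signal at the 75th percentile, quantiles within tissue, the authors' values, other filters, the brightest probe, trend and robust eBayes, slide or replicate as a block, fits of 6, 12 or 42 arrays and each array left out. Scan day as a term, leaving out arrays in the tests between tissues, and the list genes named only from fits without 1 array, were chosen after the values were seen.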

Additional observations from a re-analysis of the deposited data

Results flagged for a closer look

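Ehhadh is flagged because the difference of a model group from healthy mice was not the same in the 2 tissues, by a test of that difference in the fit of all 42 arrays. The log2 difference in muscle exceeded that in aorta by 2.39 in A vs G and by 2.77 in C vs G. With each of the 42 arrays left out in turn the first was called in 41 of 42 fits, the exception being the fit without diabetic muscle 3 (adjusted p = 0.0527), and the second in 42 of 42. With slide as a random block they were 2.30 (limma adjusted p = 0.0569) and 2.68 (adjusted p = 0.0102). In aorta the mean of the brown fat markers was 10.65, 12.44 and 12.27 on healthy arrays and 9.83 to 11.67 on KK/Ay arrays, and in muscle 7.57 to 7.95 and 7.97 to 8.51. The part of these markers in the flagged values was not tested. Ehhadh itself stood at 7.77 to 8.92 in healthy muscle, within the 7.41 to 10.01 of the KK/Ay aortas. A fall as large as that in aorta had less room there above the dim end of the array, and this limit was not tested.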

How the results depend on the processing

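Counts here are members called of 9. Ehhadh in aorta kept its direction under every alternative run, and its call in A vs G was lost (0 called, not 1) with slide as a fixed block and in the 6 arrays alone. For muscle A vs G (4) the count was 2 with scan day as a fixed block, 1 with 6 arrays, with 12 arrays and a tissue term, and with slides 1, 3 and 11 as a batch term, and 0 with 42 arrays, where 12.6%, 3.96%, 4.70%, 9.54% and 9.04% of all genes were called. For muscle C vs G (5) it was 2 with scan day, 1 with 12 arrays, and 0 with 6 arrays, 42 arrays and the batch term. For huoxue in muscle (1) it was 2 with 6 arrays and 0 with the processed signal, no filter, slide as a random block, 12 arrays, 42 arrays and the batch term. The tissue difference (7) had 4 with the processed signal, and its dependence on the model (2) 1 with slide as a random block. Except for muscle A vs G, the shares of all genes called in these fits are not given beside the counts. A lower count may go with fewer calls over all genes, so it is not a result about the members.

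Leaving out 1 array gave 4 to 7 in muscle A vs G, while the share of all genes called ran from 18.4% to 33.3%, 3 to 6 in C vs G (16.2% to 32.1%), 0 to 1 for huoxue in muscle (10.6% to 13.1%), and 1 to 3 for the dependence on the model, with 1 without diabetic muscle 3. Medians over the members moved with 12 arrays in muscle C vs G (0.37 to -0.08), C vs A (-0.11 to -0.30, and -0.29 with slide as a fixed block) and rosiglitazone (0.17 to 0.01, and -0.22 with the batch term), and for huoxue (0.12 to -0.29 with the batch term). Without 1 array the rosiglitazone median ran from 0.02 to 0.21. A fit of 12 arrays gives 1 difference over both tissues, by construction, so its values are not those of muscle alone. Acadl in C vs G was 0.54 in muscle, -0.98 in aorta and -0.22 in that fit (limma adjusted p = 0.688). Fits of 12 or 42 arrays also share the wider spread of the aorta arrays, by construction. The cause of the other shifts was not tested.

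With the replicate number as a block the counts were 1 in aorta A vs G, 4 in muscle A vs G and 5 in muscle C vs G, and no count changed. The deviations of same-numbered arrays of different groups in the same tissue had correlations from -0.555 to 0.621. Such arrays are of different mice. These values cannot show whether an aorta and a muscle sample with the same number came from the same mouse. The 3 arrays per group limit the precision, most of all in aorta, where the pooled SD of the members within groups was 0.48 to 0.89.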
